A study of Mus musculus with 4 samples.

Results

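Meningeal fibroblasts were described in single-cell RNA-seq libraries of mouse cerebral cortex, in which each bead barcode stands for 1 captured cell. A cell was a member when its summed count of Col1a1, Col1a2, Col3a1, Dcn and Lum was at least 6 and it held at most 1 count each of the pericyte genes Rgs5, Kcnj8 and Abcc9 together, of the endothelial gene Cldn5, and of the microglial genes C1qa, C1qb and C1qc together. The 5 genes from Col1a1 to Lum are called the gate genes. Cells were kept from 500 counts and 300 genes upward, unless over 10% of their counts were mitochondrial. The rule found 144 members among 7210 kept cells.

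The 4 libraries came from 1 animal each: a mouse lacking Tsukushi (Tsku, a secreted small leucine-rich proteoglycan) at birth (P0), a wild-type mouse at P0, a mouse labelled Tsku knockout on embryonic day 14.5, written E14.5, and a wild-type mouse of that stage. Tissue was dissociated with trypsin before single-cell capture. The labels give no strain, sex or allele, no other deletion or treatment, and no statement of whether the meninges were peeled from the cortex. With 1 animal per group, no comparison between single libraries has a replicate check, and the intervals given for them cover counting error only.

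The meninges are the membranes around the brain. Their fibroblasts form a pial layer that lays down the basement membrane at the brain surface, an arachnoid layer with a solute barrier, and an outer dural layer next to bone. In the developing cortex these cells are known as a source of the chemokine CXCL12, of retinoic acid, of BMP proteins and of collagens and laminins that reach neural progenitors and migrating cells below them.

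The libraries held 622 to 4119 barcodes and 5607941 to 14423600 deposited counts, and the median count per kept cell lay between 2829 and 7345.5. Tsku was at 0 counts in the kept cells of the P0 knockout and had 42 counts in P0 wild type, but it had 74 counts in the library labelled E14.5 knockout and 54 in E14.5 wild type. Kept counts summed to 14404051 in the library labelled E14.5 knockout and 5606381 in E14.5 wild type. Per kept count Tsku was thus lower in the former, but it was not absent as in the P0 knockout. The presence of Tsku counts goes against the E14.5 knockout label, and that library is called by its label throughout. In 3 of 6 library pairs some barcodes were shared, 6 in sum, and none of them was a member. A doublet caller marked 11 cells in all and no member, although 24 members were among the 5% of cells with the highest doublet scores.

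The label held for most but not all of the cells that the rule took. In 12 members the 5 gate genes made up under 0.2% of the counts: 1 in the P0 knockout, none in P0 wild type, 4 in the library labelled E14.5 knockout and 7 in E14.5 wild type. These cells held 0 to 3 counts over Col6a1, Col6a2, Col6a3, Tbx18, Foxc1, Cxcl12, Slc6a13, Lama1 and Nid1 together. The other members of the same libraries had medians of 55, 44, 25 and 45.5, with a lowest value of 0 in both E14.5 libraries. Over the whole list of collagens outside the gate, E14.5 wild type had 643 counts in all its members. Its members at or above 0.2% held 325 of them. Of the 12, 6 were rich in Ttr, the transthyretin gene that marks choroid plexus epithelium, with Ttr at 18.5% to 21.5% of counts in the library labelled E14.5 knockout and at 16.5% to 29.4% in E14.5 wild type. No other member had more than 0.160% Ttr. The low-share cells had 4307 to 65261 counts each and together held 8.98% of the members' counts in the P0 knockout, 0% in P0 wild type, 15.5% in the library labelled E14.5 knockout and 65.4% in E14.5 wild type. Levels in E14.5 wild type are therefore also given for the 12 of its 19 members at or above 0.2%, and counts of genes are given for all 144 members and, where they differ, for the 132 at or above 0.2%, a line drawn after the data were seen.

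**Figure D1:**
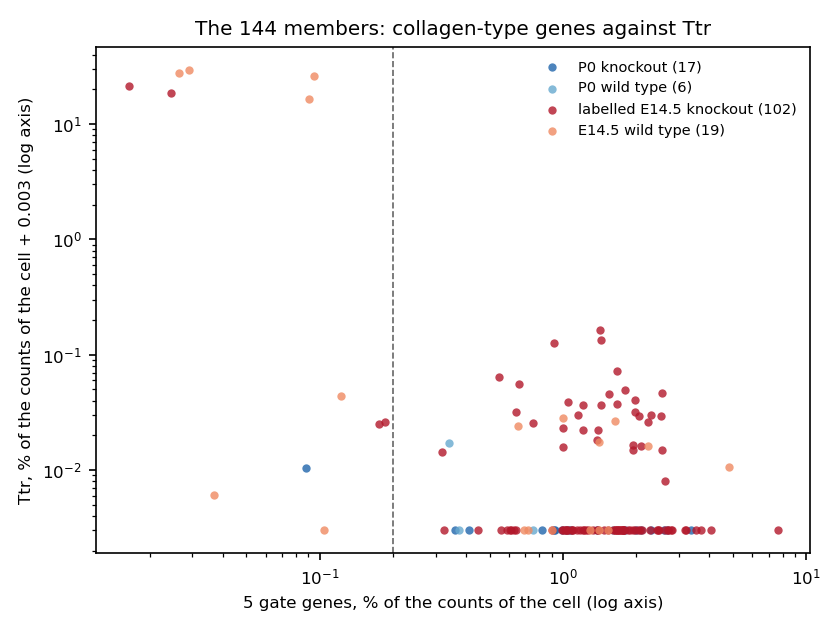
Each point is 1 member, with the share of its counts in the 5 gate genes on the x axis and the share in Ttr on the y axis (0.003 added so that 0 can be drawn), both in percent on log axes, coloured by library. The 12 members left of the dashed line at 0.2% include the 6 cells with at least 16.5% Ttr.

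Members were a small fraction of every library. They made up 17 of 1436 kept cells in the P0 knockout (1.18%, exact binomial 95% interval 0.691% to 1.89%) and 6 of 1047 in P0 wild type (0.573%, 0.211% to 1.24%). At E14.5 they were 102 of 4107 in the library labelled knockout (2.48%, 2.03% to 3.01%) and 19 of 620 in wild type (3.06%, 1.85% to 4.74%). At or above 0.2% the order of the E14.5 libraries turned, with 98 cells in the library labelled knockout (2.39%, 1.94% to 2.90%) and 12 in wild type (1.94%, 1.00% to 3.36%). The intervals of the knockout-labelled and wild-type libraries overlapped at both ages, also at E14.5 at or above 0.2%. On the log2 scale the share was lower at P0 than at E14.5 by -1.07 between the knockout-labelled libraries (interval -1.90 to -0.32) and by -2.42 between the wild-type ones (-4.03 to -1.04; -1.77, -3.47 to -0.25, at or above 0.2%). The labels do not say how much of the meninges stayed on each piece of tissue, so dissection and age cannot be told apart in these shares. The gate is an absolute count, so sequencing depth enters them as well. In cells thinned to 1500 counts, with a gate of 3, the shares were 1.05% in the P0 knockout and 0.669% in P0 wild type. They were 2.50% in the library labelled E14.5 knockout and 2.10% in E14.5 wild type. The log2 ratios of P0 over E14.5 were then -1.26 and -1.65 for the knockout-labelled and wild-type libraries.

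A lower gate changed the share in P0 wild type, but within its counting interval of 0.211% to 1.24%. With a gate of 10 counts its 6 members stayed the same, since each held at least 19. Over all libraries 5 members had 6 to 8 counts of the gate genes, 29 further cells had 3 to 5 counts and stayed outside, and 19 cells passed the fibroblast gate but were removed by a marker of another cell type. A gate of 3 counts would give 20 members in the P0 knockout (1.39%), 10 in P0 wild type (0.955%), 118 in the library labelled E14.5 knockout (2.87%) and, in E14.5 wild type, 25 (4.03%). The median member held 88 gate-gene counts in the P0 knockout, 56.5 in P0 wild type, 64 in the library labelled E14.5 knockout and 40 in E14.5 wild type.

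The gate genes themselves are given as a description. Col1a2, a chain of type I collagen, was at 7769 CPM (counts of the gene per 1000000 summed counts of members) in the P0 knockout, 5497 in P0 wild type, 5140 in the library labelled E14.5 knockout and 3202 in E14.5 wild type (8434 at or above 0.2%). Col1a1, the partner chain, was at 1385, 949, 1821 and 713 CPM in the same order (2063 at or above 0.2% in E14.5 wild type). Col3a1, the fibrillar collagen of soft tissue, was at 3245, 1590, 4962 and 1688 CPM (4884). At or above 0.2% all 3 collagen genes were lowest in P0 wild type, a sum of only 6 cells. Decorin (Dcn), a proteoglycan that binds collagen fibrils, was at 1042, 1501, 1473 and 458 CPM (1294). Lumican (Lum), a related proteoglycan, was at 138, 110, 555 and 154 CPM (445), so it was lower in both P0 libraries than in the library labelled E14.5 knockout.

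Tsku, the gene under study and itself of the Dcn and Lum family, was sparse in these cells. It had 0 counts in the 17 members of the P0 knockout, where 3 counts would be 19.8 CPM. It had 6 counts in each of the other libraries, in 4 of 6 members of P0 wild type, 6 of 102 in the library labelled E14.5 knockout, and, in E14.5 wild type, 5 of 19. In projection neurons, thinned like the members to 1500 counts per cell, Tsku was found in 0%, 1.21%, 0.813% and 1.27% of cells, against 0%, 33.3%, 1.98% and 5.26% of members in the same 4 libraries. Each member percentage rests on at most 6 counts, so the difference from projection neurons is not read as a result.

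Summed over members, 12525 genes could be compared with the sum of all other kept cells of the same animal, with the 4 animals as blocks. Of these, 1462 were called higher (11.7%) and 1675 lower (13.4%) at an adjusted p of 0.05 in edgeR's quasi-likelihood test. For the 132 members at or above 0.2% the counts were 1507 (12.3%) and 2062 (16.8%) of 12281. Members were picked in this same contrast by their collagen counts, so fold values and calls here are a description of the cells, and no p-value is given for them.

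Among called genes outside the gate with a mean of at least 50 CPM in members and the same direction in every library, the 15 with the highest fold changes included retinoid, transport, junction, matrix and transcription factor genes. Aldh1a2, the enzyme that makes retinoic acid from retinaldehyde, was at 396 CPM in the P0 knockout, 662 in P0 wild type, 178 in the library labelled E14.5 knockout and 38.4 in E14.5 wild type (111 at or above 0.2%), against at most 0.229 CPM in other cells of any library, a log2 fold change of 10.58. Its 200 counts sat in 62 of the 144 members. The organic anion transporter Slc22a6 was at 785, 1501, 296 and 290 CPM in members (839 at or above 0.2% in E14.5 wild type), against at most 0.506 CPM in other cells, and the GABA and taurine transporter Slc6a13 at 706, 1214, 273 and 182 CPM (526), against at most 0.801 CPM. Both transporters had higher levels in each P0 library than in either E14.5 library, although at or above 0.2% Slc22a6 was at 862 CPM in the P0 knockout and 839 in E14.5 wild type.

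Gap junction and secreted genes followed. The connexin genes Gjb2 and Gjb6 had log2 fold changes of 8.54 and 8.96, and the more widely expressed connexin gene Gja1 had 4.56. Edn3, which encodes an endothelin ligand, was at 396 CPM in the P0 knockout, 773 in P0 wild type, 456 in the library labelled E14.5 knockout and 210 in E14.5 wild type (587 at or above 0.2%, where the P0 knockout was at 435 and the library labelled E14.5 knockout at 539), a log2 fold change of 8.30. E14.5 wild type was thus the lowest of the 4 libraries over all members and the second highest at or above 0.2%. Srpx2, a secreted sushi-repeat protein, and Itih2, a heavy chain that binds hyaluronan, stood at 10.51 and 10.28. The agouti signalling gene a and the membrane protein gene Sidt1 stood at 8.88 and 8.77.

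Collagen VI and mesenchymal transcription factors completed these 15 genes. Col6a1, a chain of the beaded-filament collagen VI, was at 448 and 508 CPM in the P0 knockout and wild type and at 420 and 147 CPM in the E14.5 libraries labelled knockout and wild type (415 at or above 0.2% in E14.5 wild type). Col6a3, another chain, had a log2 fold change of 8.28, and that of Col6a1 was 9.62. The transcription factor genes Osr1, Tfap2b and Tbx18 had log2 fold changes of 9.09, 9.03 and 8.26.

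Lists of layer markers were counted next, each beside all genes tested, whose median log2 fold change was -0.16. All 7 pial genes were called higher (median 5.04): Cxcl12, the chemokine, was at 1932, 1877, 1643 and 748 CPM (2154 at or above 0.2% in E14.5 wild type), and Lama1, a laminin chain of the pial basement membrane, at 475, 574, 347 and 108 CPM (313). All 8 tested arachnoid genes were called higher (median 6.70), among them the tight junction gene Cldn11 at 211 CPM in the P0 knockout, 795 in P0 wild type, 919 in the library labelled E14.5 knockout and 154 in E14.5 wild type (445). Of 5 tested dural genes 3 were called higher, with Bmp5 the clearest at a log2 fold change of 7.43. The dural genes Tnmd, Fxyd5 and Mgp had 1, 5 and 15 counts over all members, and the transcription factor gene Foxp1, also on that list, had a log2 fold change of 0.32 and was not called.

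Of 12 tested mesenchymal transcription factors 11 were called higher (median 5.77) and none lower; over the 132 members 11 were called higher and 1 lower. Foxc1, a forkhead factor needed for meningeal development in mice, was at 415, 706, 357 and 129 CPM (374), and Zic1, a zinc finger factor of the forebrain meninges, at 1279, 949, 1289 and 1049 CPM (1173), with a log2 fold change of 2.97 over other cells, which had 47.9 to 367 CPM.

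Matrix genes made the largest block of lists. All 14 collagens tested outside the gate were called higher (median 5.13), as were 15 of 17 basement membrane genes (4.34) and 17 of 19 genes of collagen folding and cross-linking (2.18). Over 132 members 12 of 13 collagens were called higher and 1 lower (5.87), and 14 of the 19 folding genes higher (2.30). The exception, Col9a3, a type IX collagen chain named here after its values were seen, had a log2 fold change of 1.60 over 144 members and -3.08 over 132. Among basement membrane genes the type IV collagen chain Col4a1 was at 1708, 2031, 1300 and 713 CPM (2043), and nidogen (Nid1), which links laminin to type IV collagen, at 1484, 839, 910 and 391 CPM (1133). Agrin (Agrn), also on that list, was not called, with a log2 fold change of 0.02. Of 19 matrix glycoproteins 15 were called higher (2.73; over 132 members 15 higher and 1 lower), led by periostin (Postn) with 7.31, while versican (Vcan) and tenascin-C (Tnc), both of which neural cells carry, had 0.12 and 0.02. Of 6 other small leucine-rich proteoglycans 5 were called higher (3.63) and of 16 matrix proteases and inhibitors 11 (2.52).

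Genes of signalling pathways followed. Of 13 retinoic acid genes 9 were called higher (median 3.76), which included Aldh1a2 and Rdh10, the retinol dehydrogenase that acts before it, at 119 and 199 CPM in the P0 knockout and wild type and 573 and 217 CPM in the E14.5 libraries labelled knockout and wild type (374 in wild type at or above 0.2%). Over 132 members 10 of 12 were called higher. Of 23 BMP and TGF-beta genes 11 were called higher and 2 lower, with a median of 0.83; over 132 members 10 were called higher and 2 lower, with a median of 0.29. The BMP ligands Bmp5, Bmp6 and Bmp7 had log2 fold changes of 7.43, 6.96 and 4.62, whereas the BMP target Id2 was called lower, with -1.95. Of 17 Wnt genes 10 were called higher (1.87; 11 over 132 members), among them the ligands Wnt4 (6.89) and Wnt5a (2.75) and the Wnt target Axin2 (2.29). The growth factor Igf2 was at 2295 and 2583 CPM in the P0 knockout and wild type and at 508 and 594 CPM in the E14.5 libraries labelled knockout and wild type (1193 at or above 0.2%), with a log2 fold change of 6.25, while its receptor Igf1r had 0.11 and was not called. Of 20 solute carrier and barrier genes 15 were called higher (3.14), and over 132 members 14 (2.59).

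Few cell cycle genes were called. Of 20 S phase genes none was called higher and 1 lower (median -0.14), and of 20 mitosis genes none higher and 1 lower (-0.29). Mki67, a mitosis marker, was found in 3 of 17 members of the P0 knockout, 3 of 6 of P0 wild type, 31 of 102 in the library labelled E14.5 knockout, and, in E14.5 wild type, 8 of 19.

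**Figure D2:**
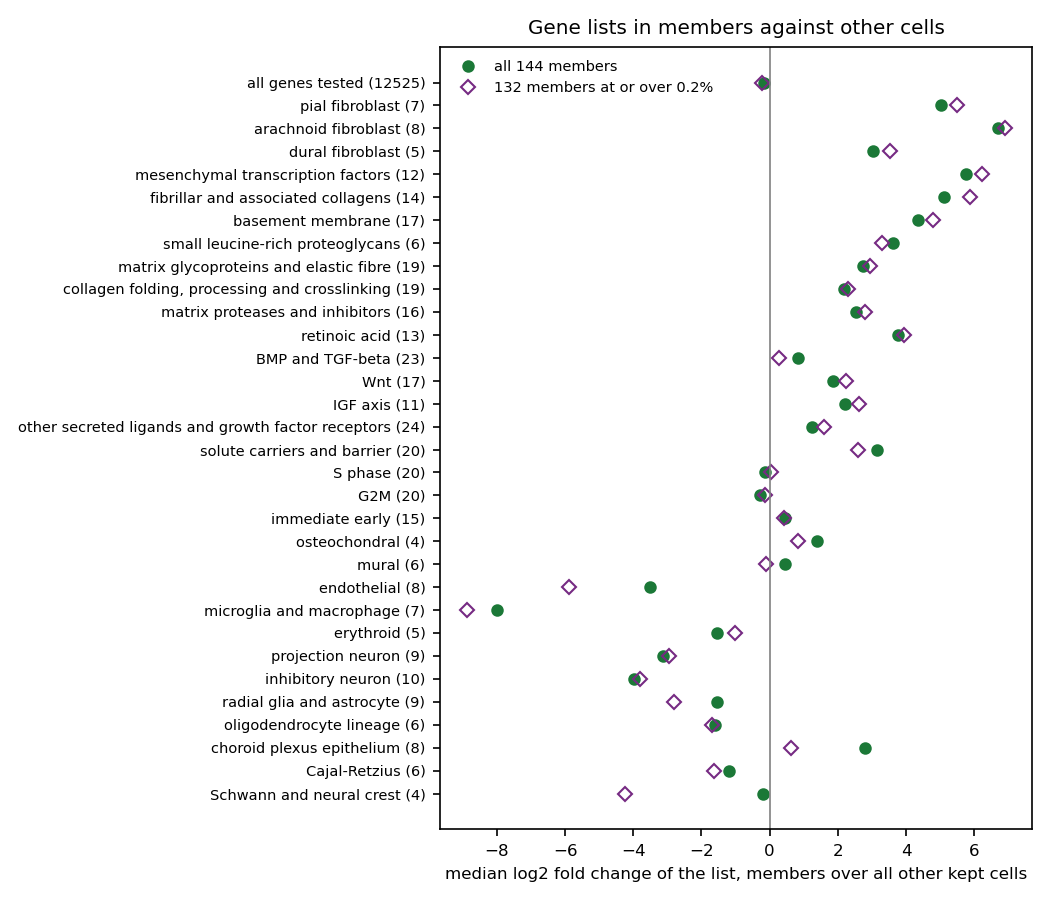
Each row is a gene list, and the x axis is the median log2 fold change of its tested genes in members over all other kept cells. Filled points are all 144 members and open diamonds the 132 at or above 0.2%; the choroid plexus list is at 2.80 over 144 members and at 0.61 over 132, while the pial and arachnoid lists are above 5 in both.

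Markers of other cell types were counted in the same way. All 9 projection neuron, 10 inhibitory neuron and 7 microglial genes outside the gate were called lower. Among called genes with a mean of at least 50 CPM in the other cells and the same direction in every library, the lowest were Gm35040 and Ctss, at 0 counts in members, then Laptm5, Dlx2 and Tyrobp with log2 fold changes of -5.46, -5.06 and -5.03. Ctss, Laptm5 and Tyrobp are genes of microglia, which the rule kept out by their C1q counts, and Dlx2 is a gene of inhibitory neurons. Of 8 endothelial genes 5 were called lower and 1 higher (4 and 1 over 132 members). Flt1, an endothelial gene outside the rule, was at 0 counts in every member. Cldn5 was at 0 counts too, but the rule itself had removed cells with more than 1 count of it. Of 6 mural genes 2 were called higher (1 of 5 over 132 members), chiefly Vtn with a log2 fold change of 5.95, a vitronectin gene that had 803 counts in members. Of 8 choroid plexus genes 7 were called higher over 144 members, with the list's summed level at 798 CPM in the P0 knockout, 1899 in P0 wild type, 29385 in the library labelled E14.5 knockout and 101257 in E14.5 wild type. Over 132 members 2 of 5 tested were called higher and 2 lower, and the sums were 855, 1899, 712 and 819 CPM. The erythroid sum was at 7941, 265, 268 and 73.4 CPM, and 1 member of the P0 knockout held 97.2% of its haemoglobin counts. What these cells and their neighbours' free RNA add to the member sums was not tested beyond these values.

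The nearest other stromal cells were 144 mural and endothelial cells, defined by at least 3 counts of Rgs5, Kcnj8 and Abcc9 together or of Cldn5 and fewer than 6 gate counts. Of 5127 genes tested against them 311 were called higher in members (6.07%) and 351 lower (6.85%), and over 132 members 353 (8.88%) and 359 (9.03%) of 3977. The gates of both cell sets used counts from these cells, so this too is a description. Slc22a6, Cldn11, Col13a1, Col4a6, Osr1, Gjb2 and Gjb6 were at 0 counts in the vascular cells of all 4 libraries. Ptgds, which encodes prostaglandin D synthase, had a log2 fold change of 8.73, Bmp6 7.31, Wnt4 7.02, and Pdgfra, a growth factor receptor of fibroblasts and oligodendrocyte precursors, 6.82.

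Basement membrane genes differed among themselves in that comparison. Of 16 tested basement membrane genes 5 were called higher in members and 2 lower, with a median of 0.57, against 9 of 10 collagens outside the gate, with a median of 4.16. Over 132 members 8 of 15 basement membrane genes were called higher and 2 lower, with a median of 0.76, against 10 of 10 collagens, with a median of 4.46. Lama1 (4.45) and Col4a6 (8.34) stood far above the vascular cells, while Col4a1 (0.25), Nid1 (0.28) and the laminin chain Lamc1 (0.33) were not called over 144 members or over 132 (0.67, 0.72 and 0.45), and agrin was at -1.52. Sparc, a collagen-binding matrix protein at 6338, 4747, 2950 and 3023 CPM in members of the P0 knockout, P0 wild type, the library labelled E14.5 knockout and E14.5 wild type (4520 at or above 0.2%), had a log2 fold change of 3.13 over all other cells but -0.48 over vascular cells.

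Members and other cells of a library were captured together, so the share of a gene's counts that lay in members could also be read. Of 209 secreted, matrix and signalling genes on the lists, 33 had at least 25% of their counts in members in every library, although members held only 1.70% of kept counts in the P0 knockout, 0.750% in P0 wild type, 3.87% in the library labelled E14.5 knockout and 5.10% in E14.5 wild type. How many of all genes reach 25% was not counted, so the 33 are not read as particular to these lists. For Aldh1a2 the share in members was 91.7% to 100% across libraries and for Col6a1 91.9% to 100%. Among ligands it was 77.9% to 94.6% for Edn3, 77.5% to 92.3% for Bmp5, 65.5% to 97.1% for Bmp6, 49.1% to 73.3% for Cxcl12 and 48.0% to 81.1% for Igf2. The number of cells behind each share differs widely, with only 6 in P0 wild type. Lama1 had 53.1% to 68.9% of its counts in members and Col4a1 26.1% to 43.4%. Some of the 33, such as Wnt6 with 21 member counts in all, rest on few counts.

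**Figure D3:**
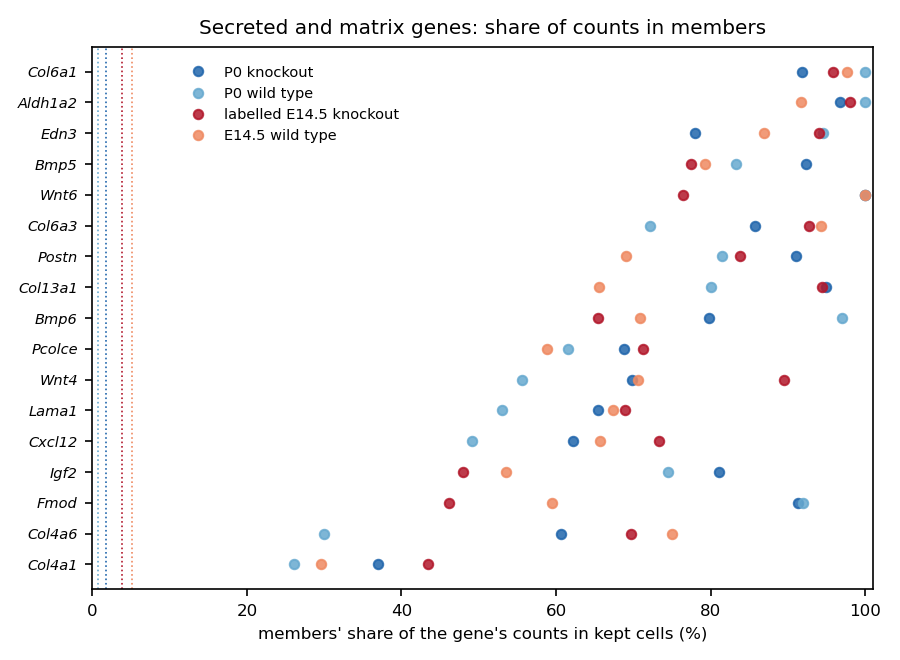
Each row is 1 of the 17 genes among the 33 that the text names, and points give the percent of the gene's counts in all kept cells that lay in members, for each library by colour. Dotted lines mark the members' percent of all kept counts in that library, from 0.750% to 5.10%, and every point lies at 25% or more.

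Markers of the pial and arachnoid layers were found in different fractions of members. Slc6a13 was detected in 16 of 17 members of the P0 knockout, all 6 of P0 wild type, 63 of 102 in the library labelled E14.5 knockout, and, in E14.5 wild type, 7 of 19, and in none of the projection neurons except 3 of 1763 in the library labelled E14.5 knockout. Cldn11 was detected in 5 of 17, 5 of 6, 81 of 102 and 8 of 19 members in that order. Cxcl12 was detected in 15 of 17, 5 of 6, 83 of 102 and 10 of 19 members, but also in 8.97%, 7.09%, 6.69% and 9.84% of projection neurons. After thinning to 1500 counts per cell, Cxcl12 was found in 82.4%, 50%, 77.2% and 42.1% of members and in 3.74%, 0.810%, 3.49% and 2.22% of projection neurons. Thinned detection of Aldh1a2 was 29.4%, 50%, 18.8% and 0% of members, and no projection neuron held a count in any library.

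Only the library labelled E14.5 knockout held enough members to describe variation among them; its 102 members were clustered without the gate genes into 5 sets. The sets are named by number, and their leading genes are a description since the clustering used them. Set 2, with 31 cells, was led by Col15a1, Heyl, Col7a1, Lamc3 and Pcolce. It had the highest pial sum (6564 CPM) and basement membrane sum (13102 CPM) of the 5 sets, Cxcl12 was found in all 31 of its cells at 3066 CPM, and Lama1 was at 749 CPM. Set 3, with 29 cells, was led by Ttr, 2 of its cells being rich in it and under 0.2%, and by Ptgds, Trpm3, Crabp2 and Gjb6. Without its low-share cells it had the highest arachnoid sum (3461 CPM) and solute carrier sum (7745 CPM), with Cldn11 at 1865 CPM and Aldh1a2 at 397 CPM in 19 cells. The pial list and the arachnoid list thus stood highest in different sets.

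The remaining sets were led by other programmes. Set 1, with 21 cells, was led by the mitosis genes Ccnb1, Kif4, Cenpf and Nusap1, with Mki67 in 20 of its cells. Without its low-share cell its mitosis list sum was 12642 CPM. Set 5, with 9 cells, was led by Igfbp7, Gata6, Fap, Alpl and Tgfbi, had 0 counts of Aldh1a2 and Slc22a6, and held Cxcl12 in only 1 cell. It had the highest dural sum (779 CPM) and osteochondral sum (899 CPM) of the sets. Alpl, a leading gene of the set that is also on the osteochondral list, made up 570 CPM of the latter, with 19 counts in 5 cells. Bmp5, of the dural list, was nevertheless lowest there, with 2 counts in 1 cell (60.0 CPM, against 104 to 288 CPM in the other sets). Set 4, with 12 cells, was led by the neuronal genes Neurod1, Neurod2, Myt1l, Celf4 and Dcx and had a median of 8066.5 counts per cell. Its projection neuron sum was 2632 CPM without its low-share cell. Of its 12 cells 11 held more than 2 counts over 10 neural genes and 8 were among the 5% highest doublet scores, and the part of doublets in its neuronal counts was not tested.

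**Figure D4:**
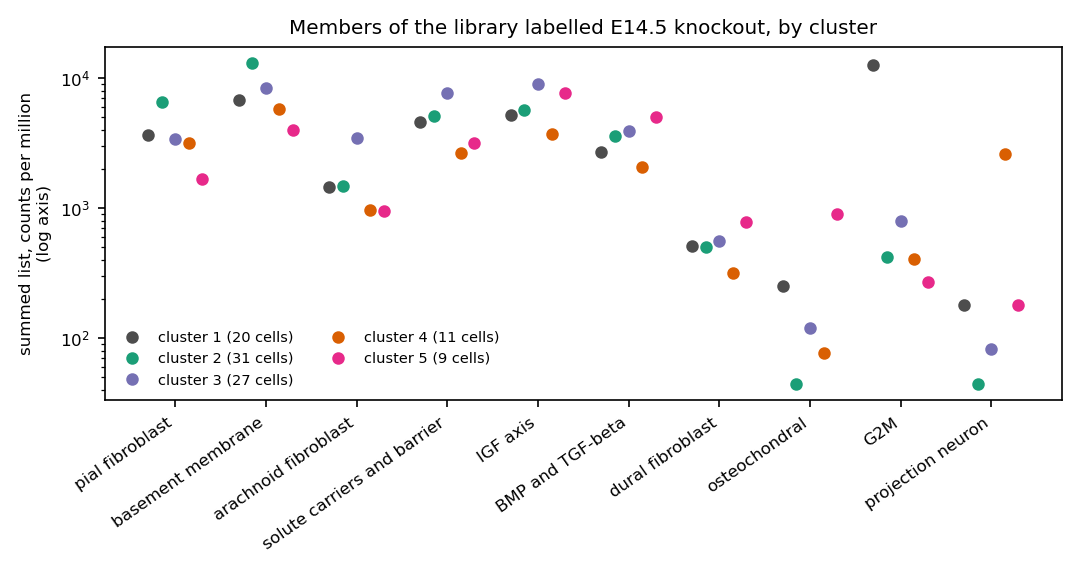
Points give the summed level (CPM, log axis) of selected gene lists along the x axis in each of the 5 sets, drawn as clusters 1 to 5, of members in the library labelled E14.5 knockout, low-share cells left out. The pial and basement membrane sums are highest in set 2, the arachnoid and solute carrier sums in set 3, and the mitosis (G2M) sum in set 1.

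Age was compared within members by fitting the 4 member sums with age and genotype label as terms, which leaves 1 residual degree of freedom and was added after the data were seen. These values did not enter the rule. Over 144 members 27 of 4911 genes (0.55%) were called higher at P0 and 22 (0.448%) lower. Over 132 members 7 of 2946 (0.238%) were called higher and none (0%) lower, with 280 genes at an unadjusted p under 0.05. The 144 and the 132 members shared 4 called genes, and 20 of the 22 genes lower over 144 members, led by Ttr, were not among the genes tested over 132, from which the Ttr-rich cells are absent.

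Glul, which encodes glutamine synthetase, rose at P0: it was at 942 CPM in the P0 knockout and 1722 in P0 wild type, against 134 in the library labelled E14.5 knockout and 384 in E14.5 wild type (132 members; log2 fold change 2.51, edgeR adjusted p = 0.038; 2.09 and 0.019 over 144). Both P0 values lay above both E14.5 values, and other cells moved the same way, at 450 and 466 CPM at P0 against 128 and 158 CPM at E14.5. Notum, a secreted enzyme that inactivates Wnt proteins, also rose over both member sets. It was at 167 and 243 CPM in the P0 knockout and wild type against 4.25 and 10.1 CPM in the E14.5 libraries labelled knockout and wild type (4.90, adjusted p = 0.045). These E14.5 levels are 2 counts and 1 count, so the fitted fold depends on the prior count and is no bound. Ptgds was at 3174 and 15609 CPM against 95.6 and 60.7 CPM (6.17, adjusted p = 0.038). Its P0 counts sat largely in single cells, however, 1 holding 97.3% of them in the knockout and 1 holding 64.6% in wild type. The fourth shared gene, Hba-a1, an alpha-globin gene, had 98.8% of its P0 knockout counts in 1 cell.

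The genes called higher over 132 members alone were Zbtb20, a zinc finger repressor, and Ccn1 and Ier2, immediate early genes of which Ier2 but not Ccn1 is on the list counted here. Zbtb20 was at 1270 and 773 CPM at P0, knockout and wild type, against 195 and 182 CPM at E14.5, labelled knockout and wild type (2.46, adjusted p = 0.038). Ier2 was at 442 and 530 CPM against 78.6 and 50.6 CPM (2.78, adjusted p = 0.046). Of the 10 tested immediate early genes all 10 had values above 0 over 132 members, with a median of 1.58, and 1 was called. The list's summed level in other cells was also higher at P0, at 5198 CPM in the knockout and 4004 in wild type, against 1523 in the library labelled E14.5 knockout and 2006 in E14.5 wild type.

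Calls of transporter and growth factor genes depended on the low-share cells. Of 13 solute carrier and barrier genes 5 were called higher at P0 over 144 members, with a median of 1.07; over 132 members none of 11 was called, with a median of 1.08. Slc7a11, the cystine transporter, was at 1717 CPM in the P0 knockout and 1634 in P0 wild type, against 378 in the library labelled E14.5 knockout and 738 in E14.5 wild type over 132 members (1.70, adjusted p = 0.14; 2.34 and 0.0077 over 144). Igf2 had log2 fold changes of 1.67 (adjusted p = 0.16) over 132 and 2.04 (0.01) over 144. Collagens, basement membrane and pial genes had medians of -0.26, 0.06 and -0.02 over 132 members, and none of their 10, 15 and 7 tested genes was called. Over 144 members the medians were 0.19, 0.32 and 0.66, with 1 of 14 collagens called lower, Col9a3 (-4.07, adjusted p = 0.019), and none of 16 basement membrane and 7 pial genes called. Crym, a thyroid hormone binding protein gene, and Mest, an imprinted gene, were called lower over 144 members, at -3.52 and -2.07, but not over 132, at -4.32 (adjusted p = 0.056) and -1.91 (0.071).

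The knockout and knockout-labelled libraries had enough members (16 and 98 at or above 0.2%) to rank genes directly, with counting intervals and no test. Of 4457 genes with at least 30 counts 284 (6.37%) were at least 2-fold higher at P0 and 581 (13%) at least 2-fold lower. Genes with over 25% of the counts of the higher sum in 1 cell, such as Hba-a1 (log2 ratio 5.70) and Hbb-bs (4.98), were left out of the ranking. The highest of the rest were Glul, the lipoprotein gene Apoe at 2000 CPM in the P0 knockout against 293 in the library labelled E14.5 knockout (log2 ratio 2.77), the secreted genes Ndnf and Angpt2, and the immediate early genes Fos and Ier2. The lowest were Vcan, the large matrix proteoglycan versican, at 43.5 CPM against 839 CPM (-4.27, interval -5.73 to -3.14), and Crym at 21.7 CPM against 263 CPM (-3.60, interval -5.90 to -2.02, from 3 counts at P0). Mir100hg, Tmem176a, Dock1 and Zfp618 followed, each with 1 count at P0. For versican the wild-type libraries had 177 CPM at P0 against 455 CPM at E14.5, and the 4-library fit did not call it (-2.97, adjusted p = 0.12). Over all members, including the low-share ones, 7.44% of 5105 genes were at least 2-fold higher and 12.7% at least 2-fold lower; the highest were Ntrk3, Fosb, Htra1, Klf9, Apoe and Angpt2, and the lowest Tmem176a, Bcl11b, Sh3bgrl3, Zfp618, Rpa3 and Plxna4. Of these the neuronal factor gene Bcl11b was at 0 counts in the P0 knockout and 135 counts in the library labelled E14.5 knockout. Set 4 of the latter carried neuronal genes, but whether the Bcl11b counts lay in that set was not tested.

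**Figure D5:**
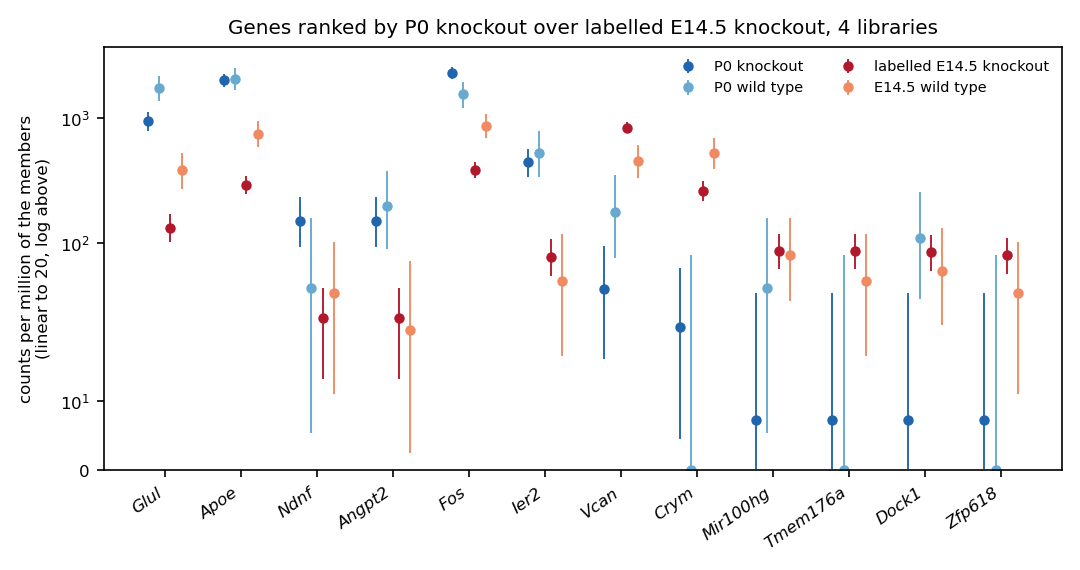
The x axis lists the genes ranked highest and lowest between the P0 knockout and the library labelled E14.5 knockout, and points give each level (CPM, on an axis that is linear up to 20 and log above) in members at or above 0.2% of each library, with 95% Poisson intervals. Glul and Apoe are higher in both P0 libraries than in both E14.5 libraries, and versican is lowest in the P0 knockout at 43.5 CPM.

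The genotype label was the other term of the same fit. No gene was called higher (0%) or lower (0%) for the knockout label against wild type, over 144 members or over 132, with 258 of 4911 and 158 of 2946 genes at an unadjusted p under 0.05 and smallest adjusted p of 0.073 and 0.435. Without TMM factors 7 genes were called higher and 1 lower over 144 members, and without a filter on low counts 14 and 18. Since Tsku counts go against the label of 1 of the 2 knockout-labelled libraries, this term compares labels and not loss of Tsku. The genes with the smallest adjusted p after Ttr were the neural or blood genes Tubb2b (log2 fold change 2.46), Fabp7 (4.08) and Hbb-bs (3.61). Next, tied on adjusted p, were Cntn2 (4.12), Hba-a1 (2.89), Map1b (2.10), Rpl26 (-1.95) and Tmem254 (-3.08). Of the tied genes Rpl26 and Tmem254 thus went the other way. In the P0 knockout 85.8% of Fabp7 counts and 96.3% of Cntn2 counts sat in 1 cell. Between the P0 libraries alone, where Tsku counts match the labels, 175 of 1351 genes (13%) were at least 2-fold higher in the knockout and 106 (7.85%) at least 2-fold lower, with 17 and 6 members behind the sums (10.6% and 7.54% of 1246 genes at or above 0.2%). Collagens outside the gate had a median log2 ratio of 0.30 there over 132 members, pial genes 0.07 and basement membrane genes 0.03, beside -0.01 for all genes; over all members the medians were 0.16, -0.04 and -0.10, beside -0.03. Arachnoid genes had a median of -1.21 (4 genes measured) and solute carriers -0.33 (9 genes) in the same pair. The 4 include Ptgds, whose P0 counts sat largely in single cells. Between the E14.5 libraries the knockout label over wild type gave 0.66 (5 genes) and -0.97 (9 genes), beside 0.10 for all genes. These arachnoid and solute carrier medians are over 132 members. Over all members the arachnoid medians were -1.35 between the P0 libraries and 0.59 between the E14.5 ones, and the solute carrier medians -0.42 and 0.35, so the sign of the solute carrier median at E14.5 turned with the low-share cells.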

How the data were processed

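Per the submitters' processing notes, reads were processed against GRCm39, with FastQC 0.12.1, R 4.3.2 and Seurat 5 named as tools; no aligner or counter is named in the sources used here. The deposited matrices hold raw counts per gene (57126 features) and cell, as whole numbers. Cells were filtered and members chosen as stated in the report; the members and gene lists were chosen with earlier results of these data known. Raw counts were summed per library over members, over all other kept cells and over mural and endothelial cells, and tested with edgeR 4.0.16 (quasi-likelihood, TMM, filterByExpr, library as block, Benjamini-Hochberg over all genes tested, threshold 0.05) in R 4.3.3; DESeq2 1.42.0 was an alternative. The procedure was first tested on simulated data. Levels are CPM, counts per 1000000 of a sum, with Poisson intervals; shares have Clopper-Pearson intervals; a sum of 0 was set to 3 counts; all cover counting error only, since no source used here says whether the deposited counts are unique molecules. The library numbers in the labels name samples and pair none. Doublets were scored with scanpy 1.11.5 and none was removed. Clusters used 1000 variable genes, 15 components, 10 neighbours and a Leiden resolution of 0.5. Named genes were the gate genes and Tsku; the 15 highest and 5 lowest called genes against other cells at 50 CPM or more and in the same direction in every library, where Gm35040, Ctss, Laptm5, Dlx2 and Tyrobp were the lowest; the 6 highest and lowest ratios of a ranked pair with at least 30 counts and no cell above 25%; up to 4 members of each list; and genes with at least 25% of counts in members. The planned ranking needed 20 members in both libraries, which no pair reached, so 15 was used. The fit of age and genotype label and the set at or above 0.2% were added after the data were seen. Some genes on the lists are counted in the totals but not reported here by name.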

Additional observations from a re-analysis of the deposited data

How the results depend on the processing

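Each group is 1 library, P0 wild type gave 6 members, and the age and genotype fit has 1 residual degree of freedom, so leaving out a library was not possible for it. Against all other kept cells, leaving out 1 library at a time gave 886 to 1539 genes called higher and 1100 to 1548 lower; the lowest counts came without the library labelled E14.5 knockout. Without the library block the calls were 1399 higher and 1525 lower, against 1462 and 1675 with it, and against mural and endothelial cells 259 and 324, against 311 and 351. Against mural and endothelial cells, leaving out 1 library gave 177 to 309 higher and 203 to 360 lower, again lowest without the library labelled E14.5 knockout, and no filter on low counts gave 628 higher and 700 lower. For P0 over E14.5 within members, library totals without TMM factors gave 67 higher and 42 lower, no filter on low counts 60 and 65, leaving out members with neural counts 59 higher, and leaving out members under 0.2% 7 and 0. For the knockout label over wild type within members, the calls were 7 higher and 1 lower without TMM factors, 14 and 18 without a filter, and 5 and 10 without members with neural counts. The causes were not tested. Of 183 values of genes named in the age fit, 148 kept their call, 26 lost it and 9 gained it; no called value changed sign. Over all lists, library pairs and settings, 280 of 727 list medians between libraries moved by more than the counting interval half-width of their list (at least 0.1 on the log2 scale). All 238 values of named genes against other cells, and all 234 against mural and endothelial cells, kept their direction and call. These genes were picked as called, with the largest fold changes and the same direction in every library, so the choice largely set this outcome. Settings in which a gene was no longer tested are not in these totals. Thinned ratios gave no value for genes at the floor of 3 counts.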

Other observations

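Growth factor genes outside the pathways described above were also high in members. Ptn, which encodes the secreted growth factor pleiotrophin, was at 12016 CPM in members of the P0 knockout, 12982 in P0 wild type, 4543 in the library labelled E14.5 knockout and 3418 in E14.5 wild type (8484 at or above 0.2%), against 2228, 2065, 472 and 712 CPM in other cells of the same libraries. Members and other cells thus both held more Ptn at P0 than at E14.5. Fibromodulin (Fmod), a collagen-binding proteoglycan of the Tsku family, was at 277 CPM in the P0 knockout and 508 in P0 wild type, against 32.3 in the library labelled E14.5 knockout and 76.9 in E14.5 wild type (172 at or above 0.2%), with at most 2.82 CPM in other cells of any library. H19, an imprinted noncoding RNA, was at 2143 and 1612 CPM at P0, knockout and wild type, and at 1447 and 703 CPM at E14.5, labelled knockout and wild type (1992 at or above 0.2%), so its order between ages changed in wild type with the low-share cells.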
